A study of Mus musculus with 24 samples.

Results

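Levels of 10 genes of the blood-brain barrier were examined in single cells of mouse primary motor cortex and dorsal striatum: Cldn5, Ocln, Slc2a1, Slc7a5, Slco1a4, Slco1c1, Abcb1a, Abcg2, Mfsd2a and Tfrc. They were taken as a named list by symbol, from 54235 features, by a rule that uses no measured value, though the list was drawn up with earlier results of these data known. Motor cortex came from Fos-CreER::Ai9 mice and dorsal striatum from Arc-CreER::Ai9 mice. In these mice neurons active around a dose of 4-hydroxytamoxifen switch on a red reporter, so that region and driver line cannot be told apart. In each region control mice had the drug without training, early mice were labelled after 2 days and late mice after 8 days of training on a reach with the forelimb, and tissue was taken 3 days after labelling. Ages were not given in the sources used here. Each library held 1 hemisphere of tissue from 2 mice, and both hemispheres of the same mice made a pool, giving 24 libraries and 12 pools, with 2 pools at every stage in either region. A pool was the unit of replication.

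Endothelial cells of brain capillaries are joined by tight junctions, which close the path between cells, so that nutrients must pass through carriers in the cell membranes. Carriers of glucose, amino acids, lipids and hormones bring substrates in, receptors take up proteins such as iron-loaded transferrin, and pumps return drugs and other compounds to the blood. Pericytes and smooth muscle cells, together called mural cells, lie on the outer side of the endothelium and do not form this layer.

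The 10 genes lie on 6 mouse chromosomes in GENCODE M21 (GRCm38), and each is annotated as protein coding. Cldn5 spans chr16:18776847-18778262 on the plus strand, Slc2a1 chr4:119108711-119137983 (plus), Mfsd2a chr4:122946850-122961188 (minus), Abcb1a chr5:8660077-8748575 (plus) and Abcg2 chr6:58584523-58695676 (plus). Slco1a4 spans chr6:141805440-141856199 (minus), Slco1c1 chr6:141524368-141570177 (plus), Tfrc chr16:32608920-32632794 (plus), Slc7a5 chr8:121881150-121907694 (minus) and Ocln chr13:100496507-100552718 (minus). Whether reads were assigned by strand was not given in the sources used here, so reads from models on the opposite strand over Slc2a1 (Gm12867, Gm12868), Abcb1a (Gm42686) and Slc7a5 (Gm20388) cannot be told apart from the genes. Mir1957a over Slc2a1 and Gm42684 over Abcb1a lie on the same strand and would stay uncertain with strand known. Abcb1a has a near copy, Abcb1b, and Slco1a4 has close relatives beside it, so their counts are uncertain where reads could fit both.

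RefSeq promoters (GRCm38.p6) matched 9 of the 10 genes. The 250 bases before the start are shown for 4 of them, 2 whose counts came almost wholly from endothelial-like cells (Cldn5, Slco1a4) and 2 that other cells also expressed (Mfsd2a, Tfrc). Each is written 5′ to 3′ on the gene's own strand. Capitals mark matches, on either strand, to 5 short motifs. These were GGGCGG for the box bound by Sp factors, TATAAA for the box near many starts, CTTTGA for the core bound by LEF and TCF factors, CCGGAA for the core bound by ETS factors and AACAAT for the core bound by SOX factors.
Cldn5, chr16:18776597-18776846, plus strand: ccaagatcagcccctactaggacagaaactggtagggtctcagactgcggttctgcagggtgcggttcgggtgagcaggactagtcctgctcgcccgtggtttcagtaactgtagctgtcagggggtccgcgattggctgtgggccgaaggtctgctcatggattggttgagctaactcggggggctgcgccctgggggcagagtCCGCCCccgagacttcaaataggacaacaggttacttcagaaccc
Slco1a4, chr6:141856221-141856470, minus strand: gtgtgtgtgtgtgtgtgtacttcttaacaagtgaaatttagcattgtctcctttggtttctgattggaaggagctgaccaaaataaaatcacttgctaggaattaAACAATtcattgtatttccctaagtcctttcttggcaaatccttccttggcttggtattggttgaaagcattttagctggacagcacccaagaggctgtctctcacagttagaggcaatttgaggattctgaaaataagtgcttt
Mfsd2a, chr4:122961189-122961438, minus strand: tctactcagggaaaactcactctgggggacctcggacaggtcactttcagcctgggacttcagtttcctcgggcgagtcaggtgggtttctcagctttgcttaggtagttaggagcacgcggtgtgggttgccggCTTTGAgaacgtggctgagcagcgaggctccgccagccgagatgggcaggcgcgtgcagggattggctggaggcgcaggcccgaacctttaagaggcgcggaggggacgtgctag
Tfrc, first of 2 listed starts, chr16:32608646-32608895, plus strand: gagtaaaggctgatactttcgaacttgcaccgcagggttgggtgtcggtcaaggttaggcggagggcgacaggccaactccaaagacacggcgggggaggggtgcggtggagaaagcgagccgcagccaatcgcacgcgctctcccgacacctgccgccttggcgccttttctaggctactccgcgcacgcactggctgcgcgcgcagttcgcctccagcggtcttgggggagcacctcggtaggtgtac
The Cldn5 window held 1 Sp factor box (GGGCGG) and 59.6% G or C. The Slco1a4 window held 1 SOX core and 39.2% G or C. The Mfsd2a window held 1 LEF/TCF core and 61.6% G or C, and the Tfrc window held none of the 5 motifs at 64.8% G or C. The window of the second Tfrc start, not shown, held 1 Sp factor box and 68.0% G or C. Of 32851 RefSeq windows of the same length, 32.7% held GGGCGG, 12.4% held TATAAA, 13.8% held CTTTGA, 12.0% held CCGGAA and 9.42% held AACAAT. No motif is the reverse complement of another, and a match is a description of the letters only.

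Matrices of unique molecular identifiers (UMIs, 1 per captured RNA molecule) were analysed for 23 libraries. Of striatal control replicate 1 only the left hemisphere entered, the right one being not analysed here. Library totals ran from 5260446 to 30470621 UMIs, and 98612 cells were kept. Cells were clustered without the 10 genes and without 65 other barrier genes, and clusters were named from other markers. The motor cortex had 1990 endothelial-like cells in 1 cluster, in which 13 of 14 endothelial markers such as Pecam1, Cdh5 and Flt1 were detected. The dorsal striatum had 1389, of which 1326 were in a cluster with 13 of 14 markers and 63 in a second with 8 of 14. Pools held 63 to 730 endothelial-like cells. Of the 63 cells of the second striatal cluster, 50 came from late replicate 1, whose endothelial-like cells summed to 6277 CPM (UMI counts divided by the total of the pool and class and put on 1 common scale) of spiny projection neuron markers against 125.1 to 883.2 in the other 5 pools. In motor cortex control replicate 1 (63 cells) microglial markers summed to 1406 CPM, against 47.98 to 213.3 in the other 5, and in striatal control replicate 1 haemoglobin markers reached 7003 CPM. A further 59 cells in motor cortex and 97 in striatum carried haemoglobin and endothelial genes together and stayed unnamed. Libraries fell into 2 classes by the barcodes they shared (for 1000 cells of 1 library set against 1000 of another, 1.34 within class A, 0.262 within class B and 0.0236 between), and the labels give 2 kit versions without saying which library had which. Class A held control replicate 1 and late replicate 1 of both regions, and class B the other 8 pools. Pairs of libraries shared 1895 barcodes within class A, 665 within class B and 112 between classes.

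All 10 genes were higher in endothelial-like than in mural cells (pericyte-like and smooth muscle-like together) in 6 of 6 pools of each region. They were also higher than in all other named cells summed together, in 6 of 6 pools of each region. A single class within that sum could still be higher, as oligodendrocyte precursor-like cells were for Mfsd2a. In edgeR's quasi-likelihood test with the pool as a block, all 10 passed the filter on low counts and were called higher, at an adjusted p under 0.05, in all 4 of these comparisons. Against striatal mural cells Abcb1a passed the filter only through its endothelial-like counts, so its call there adds no separate support. Several other genes were also low in every mural pool. In striatum their highest mural pools held 5.46 CPM of Ocln and Slco1c1, 7.88 of Slc7a5, 8.01 of Mfsd2a and 16.01 of Cldn5. In motor cortex these were 4.22 CPM for Ocln, 9.86 for Abcb1a and 12.67 for Slco1c1. Such calls rested largely or wholly on endothelial-like counts and likewise add no separate support. The share of all genes called higher was 24.1% against mural cells and 25.3% against other cells in motor cortex, and 23.2% and 21.4% in dorsal striatum. The median log2 difference of the 10 genes was 6.42 against mural cells and 6.95 against other cells in motor cortex, where the medians over all genes tested were -0.13 and -0.49. In dorsal striatum the medians of the 10 were 7.10 and 6.96, against -0.06 and -0.44 over all genes; with Abcb1a, which had no UMI in striatal mural cells, at its lower bound the median against mural cells was 6.90. Mural cells carried 306.9 to 825.4 CPM of endothelial markers per pool, against 10840 to 19890 CPM in endothelial-like cells.

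**Figure D1:**
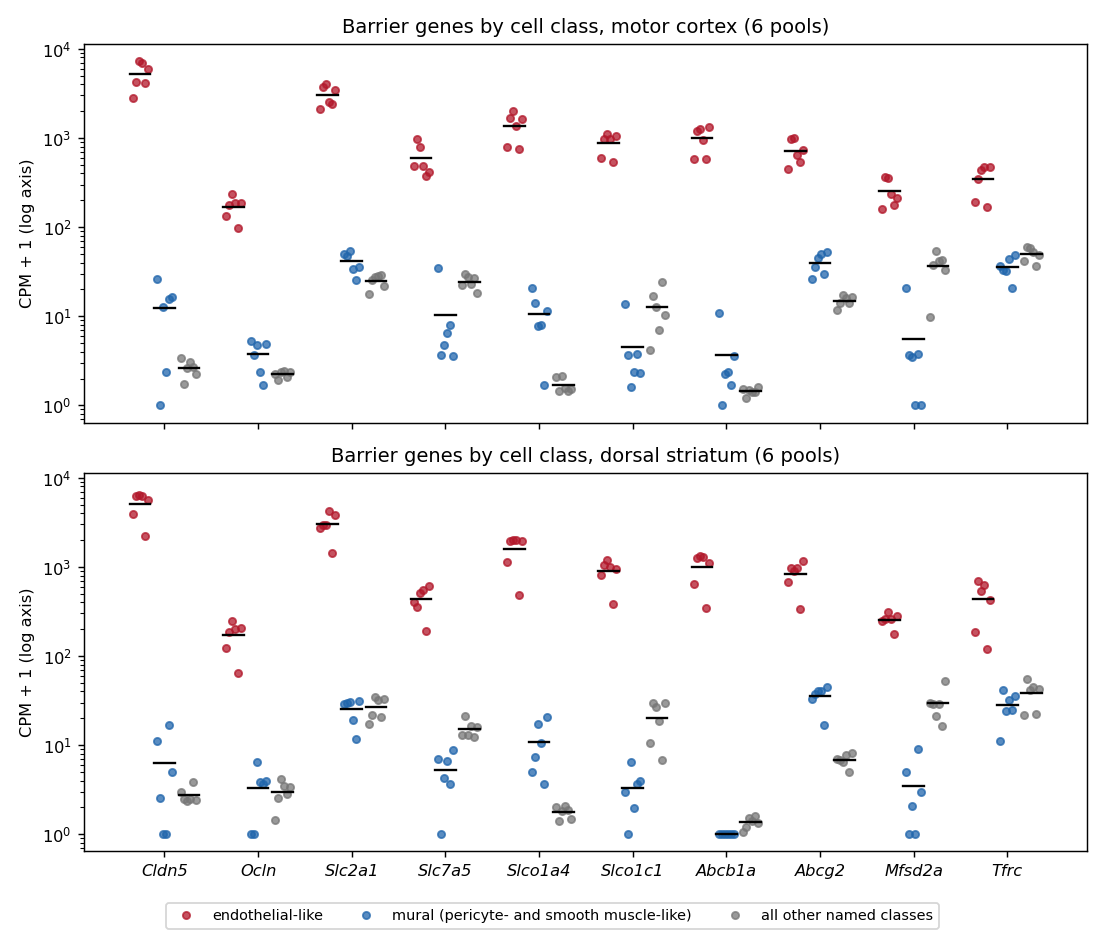
Levels of the 10 genes in each pool, as CPM + 1 on a log axis, in motor cortex (top) and dorsal striatum (bottom). Red points are endothelial-like, blue points mural and grey points all other named cells, each 1 of 6 pools, and black bars are means; the endothelial-like points of every gene lie above its mural points, and Abcb1a has no mural UMI in any striatal pool.

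The junction genes were Cldn5, which encodes claudin-5, the main claudin of the brain endothelium, and Ocln, which encodes occludin. Cldn5 had a lowest, median and highest level of 2773, 5073 and 7267 CPM over the motor cortex pools, and of 2227, 5902 and 6367 CPM over the striatal pools. In mural cells its pools lay between 0 and 25.4 CPM in motor cortex and between 0 and 16.01 CPM in striatum, far below every endothelial-like pool. The log2 difference from mural cells was 9.02 (SE 0.52, n = 6 pools, edgeR adjusted p = 2.06e-08) in motor cortex and 10.50 (SE 0.44, adjusted p = 8.97e-13) in striatum. Striatal mural cells had no Cldn5 UMI in 2 of 6 pools, so the size of that difference is not exact. Over 16 alternatives the striatal value ran from 6.65 to 11.56. Ocln lay between 96.8 and 237.0 CPM in the motor cortex pools and between 62.7 and 245.0 CPM in the striatal pools. Its mural pools reached 4.22 and 5.46 CPM, and its log2 differences from mural cells were 6.12 (SE 0.23) and 6.14 (SE 0.26). Ependymal-like cells of the striatum, which line the ventricle, also held Ocln, at 80.3 ± 30.8 CPM (SD, n = 6). Endothelial-like cells were above them in 5 of 6 pools, and the difference did not pass an exact paired permutation test (two-sided p = 0.0625, where 0.0312 is the smallest possible).

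The carriers of glucose and large neutral amino acids are Slc2a1 (GLUT1) and Slc7a5 (LAT1). Slc2a1 lay at 2137 to 4002 CPM (median 2984) in motor cortex and 1442 to 4187 CPM (median 2960) in striatum. Mural cells held 40.1 ± 10.9 CPM and 24.2 ± 8.03 CPM (SD, n = 6), and astrocyte-like cells 140.0 ± 22.9 and 109.9 ± 32.3 CPM. Ependymal-like cells held 494.6 ± 143 CPM of Slc2a1, which left the endothelial-like mean 6.10 times higher, with all 6 pools in that direction. Slc7a5 lay at 371 to 977.5 CPM (median 483.6) in motor cortex and 188.1 to 605.7 CPM (median 452.6) in striatum. It was 63.8 times its mural mean in motor cortex (log2 difference 6.39, SE 0.43) and 102.1 times in striatum (6.74, SE 0.23). Its level elsewhere was low but widespread, with 54.5 ± 18.3 CPM in fibroblast-like cells and 42.6 ± 12.7 CPM in GABAergic interneuron-like cells of motor cortex.

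Slco1a4 (Oatp1a4) carries organic anions, and Slco1c1 (Oatp1c1) carries thyroxine. Slco1a4 lay at 743.8 to 2003 CPM (median 1494) in motor cortex and 479.4 to 2005 CPM (median 1936) in striatum. Other named cells together held 0.708 ± 0.313 and 0.779 ± 0.282 CPM, log2 differences of 11.21 (SE 0.25) and 11.25 (SE 0.43). Within mural cells of the striatum the pericyte-like level was 21.7 CPM and the smooth muscle-like level 0.935 CPM, and fibroblast-like cells there held 38.3 ± 13.1 CPM. Slco1c1 was shared with astrocytes. Its endothelial-like pools lay at 539.5 to 1105 CPM in motor cortex and 383.5 to 1192 CPM in striatum, and astrocyte-like pools at 232.4 to 845.2 CPM and 101.5 to 594.8 CPM. These ranges overlap, but within each pool the endothelial-like level was the higher, in 6 of 6 pools of each region. The means differed 1.57-fold in motor cortex and 2.26-fold in striatum (exact paired permutation p = 0.0312 in each, the smallest possible, and 0.0329 adjusted over 20 pairs).

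The efflux pumps were Abcb1a (P-glycoprotein) and Abcg2 (BCRP). Abcb1a lay at 581.3 to 1333 CPM (median 1073) in motor cortex and 346.7 to 1337 CPM (median 1190) in striatum. Striatal mural cells held no Abcb1a UMI in any of 6 pools. With a floor of 3 UMIs per pool the endothelial-like level was at least 43.3-fold higher in the pool with the smallest ratio. In motor cortex 13 mural UMIs gave 2.63 ± 3.64 CPM, and the log2 difference was 8.86 (SE 0.42). Abcg2 lay at 447.8 to 989.5 CPM (median 685.8) in motor cortex and 331.9 to 1163 CPM (median 933) in striatum. Unlike Abcb1a, it had 38.9 ± 10.9 and 34.6 ± 9.99 CPM in mural cells, and 42.0 ± 7.03 and 43.8 ± 10.7 CPM in oligodendrocyte precursor-like cells. Its log2 difference from mural cells was 4.39 (SE 0.19) in motor cortex and 4.68 (SE 0.15) in striatum.

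Mfsd2a, a carrier of lysophospholipids that bear omega-3 fatty acids, was the gene for which endothelial-like cells did not hold the top level. Its endothelial-like pools lay at 157.1 to 365.8 CPM in motor cortex and 173.3 to 307.0 CPM in striatum. Oligodendrocyte precursor-like cells held 424.3 ± 159 and 382.0 ± 84.2 CPM, and were above the endothelial-like cells of the same pool in 6 of 6 pools of each region. The ratio of means was 1.69 and 1.5 (exact paired permutation p = 0.0312 in each, the smallest possible, 0.0329 adjusted over 20 pairs; the class compared was picked as the highest of the other classes). Committed oligodendrocyte precursor-like cells held 343.0 ± 116 and 284.6 ± 84.8 CPM, and astrocyte-like cells 318.7 ± 80.0 and 190.6 ± 57.0 CPM. Mural cells held 4.61 ± 7.51 and 2.51 ± 3.08 CPM. Tfrc, the transferrin receptor, lay at 168.5 to 474.2 CPM in motor cortex and 118 to 701.6 CPM in striatum. It was 10.0 and 15.8 times the mural mean, the smallest of the 10 ratios in each region. Neurons also expressed it, with 56.7 ± 10.6 CPM in glutamatergic neuron-like cells of motor cortex and 34.3 ± 11.7 CPM in spiny projection neuron-like cells of striatum, beside 68.8 ± 18.2 and 68.7 ± 17.6 CPM in astrocyte-like cells.

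**Figure D2:**
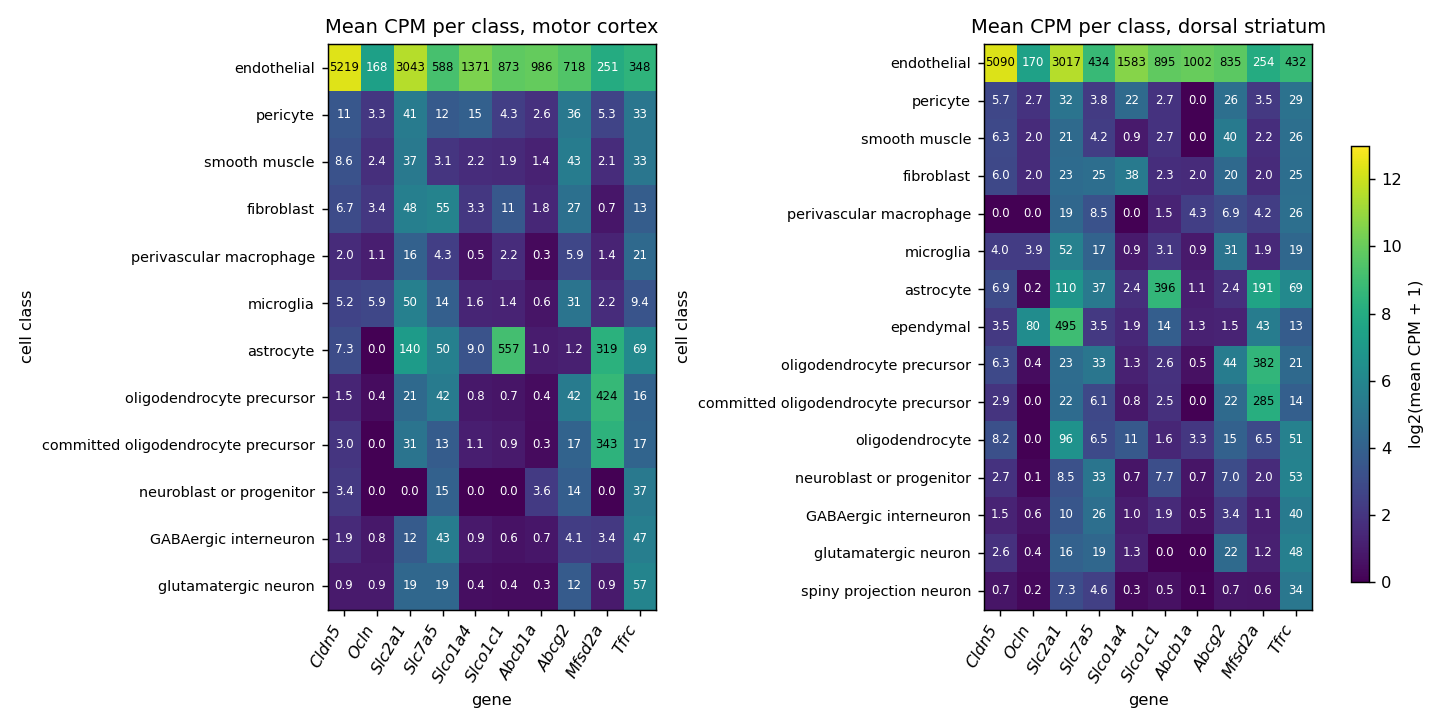
Mean CPM over pools of the 10 genes in each cell class of motor cortex (left) and dorsal striatum (right), for classes with at least 20 cells in 4 or more pools; colour gives log2(mean CPM + 1). Endothelial-like cells are the top row, and the Mfsd2a column is higher in oligodendrocyte precursor-like cells in both regions.

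The share of a gene's UMIs that came from endothelial-like cells also depends on how many cells of each class were captured, and differed widely among the genes. Endothelial-like cells held a median of 94.2% of Cldn5, 92.6% of Abcb1a and 91.5% of Slco1a4 UMIs over the motor cortex pools, and 93.8%, 92.9% and 92.7% over the striatal pools. For Slc2a1 and Ocln the medians were 62.3% and 63.3% in motor cortex and 60.1% and 57.8% in striatum. Slco1c1 was split between endothelial-like (53.3% and 41.7%) and astrocyte-like cells (36.0% and 47.7%). Endothelial-like cells held 38.1% and 63.4% of Abcg2 and 25.2% and 30.3% of Slc7a5. They held 9.29% and 14.95% of Tfrc, of which neurons held 79.2% and 52.5%, and 8.54% and 10.5% of Mfsd2a.

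**Figure D3:**
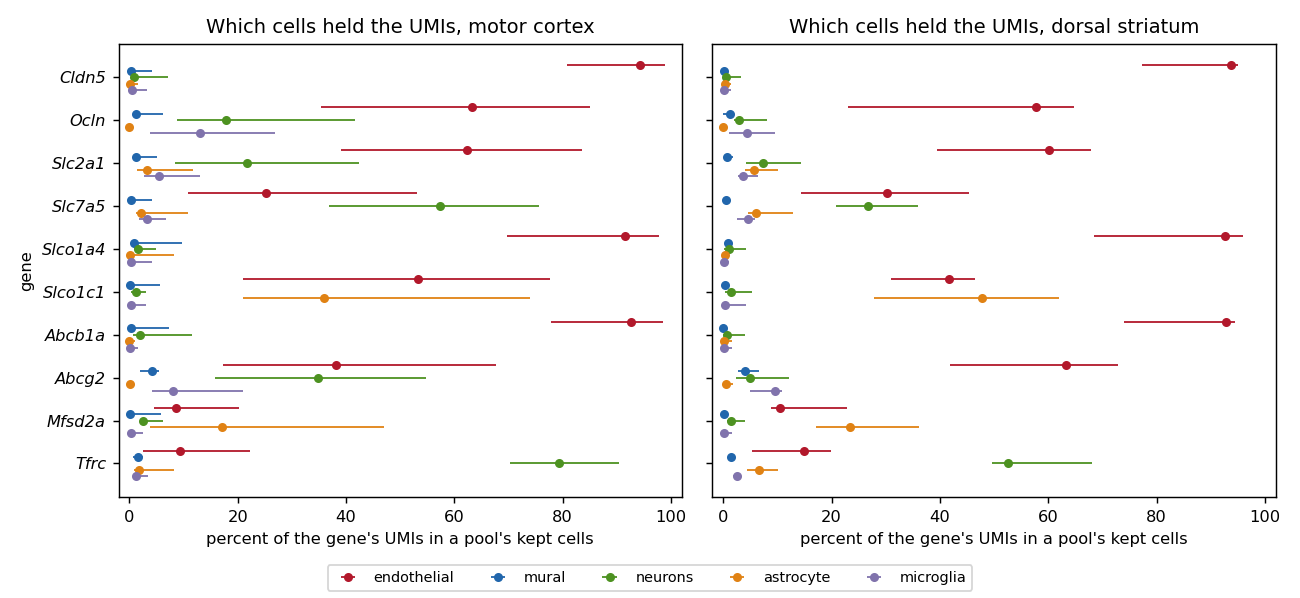
Percent of each gene's UMIs that came from endothelial-like, mural, neuronal, astrocyte-like and microglia-like cells of a pool; points are medians and bars the lowest and highest of 6 pools. Cldn5, Abcb1a and Slco1a4 have endothelial-like medians above 90%, while neurons hold most Tfrc UMIs.

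In single cells thinned to 1000 UMIs each, endothelial-like cells carried a median of 6 of the 10 genes in both regions, and mural and microglia-like cells a median of 0. At least 5 genes were found in 74.5% of 1990 endothelial-like cells of motor cortex and 72.35% of 1389 of striatum. Cldn5 had a UMI in 95.8% ± 3.09 of motor cortex endothelial-like cells (SD, n = 6 pools; 98.5% without thinning), against 0.505% in mural and 0.375% in microglia-like cells. Slc2a1 was found in 89.6% ± 7.17, and in 3.59% of mural and 4.59% of microglia-like cells. Ocln was found in 14.5% ± 5.21 (26.3% without thinning) and Mfsd2a in 21.8% ± 7.24 (33.8%), against 0.568% and 0.215% in microglia-like cells. Median depths were 1592 UMIs in endothelial-like, 1656 in mural and 1821 in microglia-like cells of motor cortex. The cell filter had already removed barcodes below 1000 UMIs, so thinning left out no endothelial-like cell. The shares do not cover cells below that depth.

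Across 27 profiles of region and class, the genes with the most similar pattern were Cyyr1 (r = 0.984) and Foxl2 (0.984) for Cldn5, and Sema3g (0.992) and Foxl2 (0.991) for Abcb1a. For Slco1a4 they were Tek (0.956) and Tie1 (0.937), 2 angiopoietin receptor family genes that were among the markers used to name the cells. Ocln was nearest to Layn (0.938) and Rassf9 (0.929), Slco1c1 to Eogt (0.894), and Slc2a1 to Nod1 (0.872) and Slc16a4 (0.863), a monocarboxylate carrier. Mfsd2a was nearest to Nckap5 (0.866) and Lrp4 (0.849), Tfrc to Map4k2 (0.859) and Sema7a (0.819), Slc7a5 to Mcc (0.843) and Vegfc (0.842), and Abcg2 to Sema4c (0.818) and Lnx2 (0.797). Among the 10 genes themselves Cldn5 and Abcb1a were closest (r = 0.971) and Mfsd2a and Tfrc farthest (0.226). These are Pearson correlations of log2 levels over profiles that share pools and libraries, given as a description.

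A list of 65 other barrier genes was read beside the 10. In motor cortex 51 of 61 tested were called higher and 5 lower in endothelial-like than mural cells, and in striatum 46 of 57 higher and 4 lower. Against other cells, 52 of 65 were higher and 9 lower in each region. Of all genes, 24.1% were higher and 28.1% lower than in mural cells of motor cortex, and 23.2% and 25.5% in striatum. Against other cells 25.3% were higher and 42.8% lower in motor cortex, and 21.4% and 36.8% in striatum. Of 20 solute carriers, 17 were higher and 2 lower than in mural cells of motor cortex. The iron exporter Slc40a1 was 5.65 log2 units higher (SE 0.26), and the manganese exporter Slc30a10 was lower, at -6.41 (SE 0.61, edgeR adjusted p = 1.71e-06). Of 6 ABC transporters, 2 were higher in both regions and both contrasts, Abcc4 and the cholesterol exporter Abca1. Abcc4 (MRP4, a pump of organic anions) was 8.15 log2 units above mural cells in motor cortex (SE 0.30) and 7.58 in striatum (SE 0.29). Abcc5 was called lower in all 4 contrasts, and Abcb1b was lower than in other cells of motor cortex (-1.31, SE 0.58, adjusted p = 0.0445).

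Among 13 receptors and vesicle genes, 10 of 12 tested were higher than in mural cells of each region. Lsr, of the tricellular junction, reached a log2 difference of 8.27 (SE 0.35) in motor cortex and 9.54 (SE 0.29) in striatum. Lrp1, a lipoprotein receptor, was lower in endothelial-like than mural cells, at log2 differences of -3.99 (SE 0.40) and -4.00 (SE 0.36). Plvap, the diaphragm protein of leaky endothelium, was lower than in other cells, at -3.95 (SE 0.48) and -1.84 (SE 0.46). Of 9 junction genes 7 were tested against mural cells, and 6 were higher in each region, Jam2 by 5.91 (SE 0.38) and 6.07 (SE 0.25). Cldn12 was lower than in mural cells of motor cortex (-0.97, SE 0.36, edgeR adjusted p = 0.0353). All 17 genes of Wnt signalling and barrier transcription factors were higher than in other cells of each region. Against mural cells 16 and 14 of them were, Sox17 by 8.61 (SE 0.32) in motor cortex, Foxq1 by 6.68 (SE 0.23) and Lef1, a transcription factor of the Wnt pathway, by 4.59 (SE 0.24).

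Within the endothelium, arteries and veins are marked by different genes. Endothelial-like cells with at least 2 UMIs of 9 arterial markers such as Gkn3 and Bmx, and more of them than of 8 venous markers such as Nr2f2 and Vwf, were set against the converse cells of the same pool (750 and 810 cells, with at least 20 of each in all 12 pools). The markers chose the cells, so their values describe the sets only. All 9 arterial markers were higher in arterial-marked cells, from 2.62 to 7.03 log2 units, but the 6 venous markers tested were uneven. Lcn2, Nr2f2, Tmem252 and Ephb4 were lower there (-4.56, -4.13, -1.80 and -0.90), while Vwf differed by -0.27 and Vcam1 by 0.10, so these last 2 separated the sets little or not at all. Of the 10 genes 8 were called lower in arterial-marked cells and none higher, where 8.97% of 4695 genes were called lower and 9.86% higher. Slc7a5 had a lowest, median and highest level of 53.0, 147.1 and 407.7 CPM in arterial-marked cells and of 234.6, 677.5 and 1328 CPM in venous-marked cells, and was lower in arterial-marked cells in 12 of 12 pools. Its log2 difference was -2.06 (SE 0.11, edgeR adjusted p = 4.97e-18). Tfrc lay at 42.4 to 414.0 CPM (median 156.5) in arterial-marked and 149.3 to 857.8 CPM (median 511.3) in venous-marked cells, also lower in 12 of 12 pools (log2 difference -1.71, SE 0.14). Cells with neither mark held 624.3 ± 242.1 CPM of Slc7a5 and 480.9 ± 240.9 CPM of Tfrc (SD, n = 12), where the venous-marked means were 710.4 ± 274.6 and 515.8 ± 258.7.

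Abcg2, Slco1a4, Mfsd2a and Cldn5 were lower in arterial-marked cells in 12 of 12 pools each, by log2 differences of -0.95, -0.84, -0.79 and -0.60. Mfsd2a stood at 278.9 ± 65.2 CPM in venous-marked and 167.0 ± 43.3 CPM in arterial-marked cells (SD, n = 12), and Cldn5 at 5942 ± 1593 and 4061 ± 1387 CPM. Cells with neither mark held 299.3 ± 103.3 CPM of Mfsd2a, above the venous-marked mean, and 5468 ± 1937 CPM of Cldn5, below it. The mean was also highest in unmarked cells for Abcb1a, Ocln and Slco1c1, and highest in venous-marked cells for the other genes. Abcb1a was lower in 10 of 12 pools (-0.39, SE 0.09, edgeR adjusted p = 0.0017). Ocln was lower in 9 of 12 pools (-0.46, adjusted p = 0.0262), and without a filter on low counts or with DESeq2 its adjusted p was 0.11 and 0.203. The Ocln call was also lost without striatal control replicate 2 (adjusted p = 0.0729), early replicate 1 (0.128), early replicate 2 (0.105) or late replicate 2 (0.0684), and without motor cortex early replicate 1 (0.0782). Slc2a1 and Slco1c1 did not pass the test. Slc2a1 differed by -0.16 (adjusted p = 0.113), with 2925 ± 806.9 CPM in arterial-marked and 3234 ± 850.0 CPM in venous-marked cells. Slco1c1 differed by -0.09 (adjusted p = 0.553), with the arterial-marked level lower in 6 of 12 pools.

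**Figure D4:**
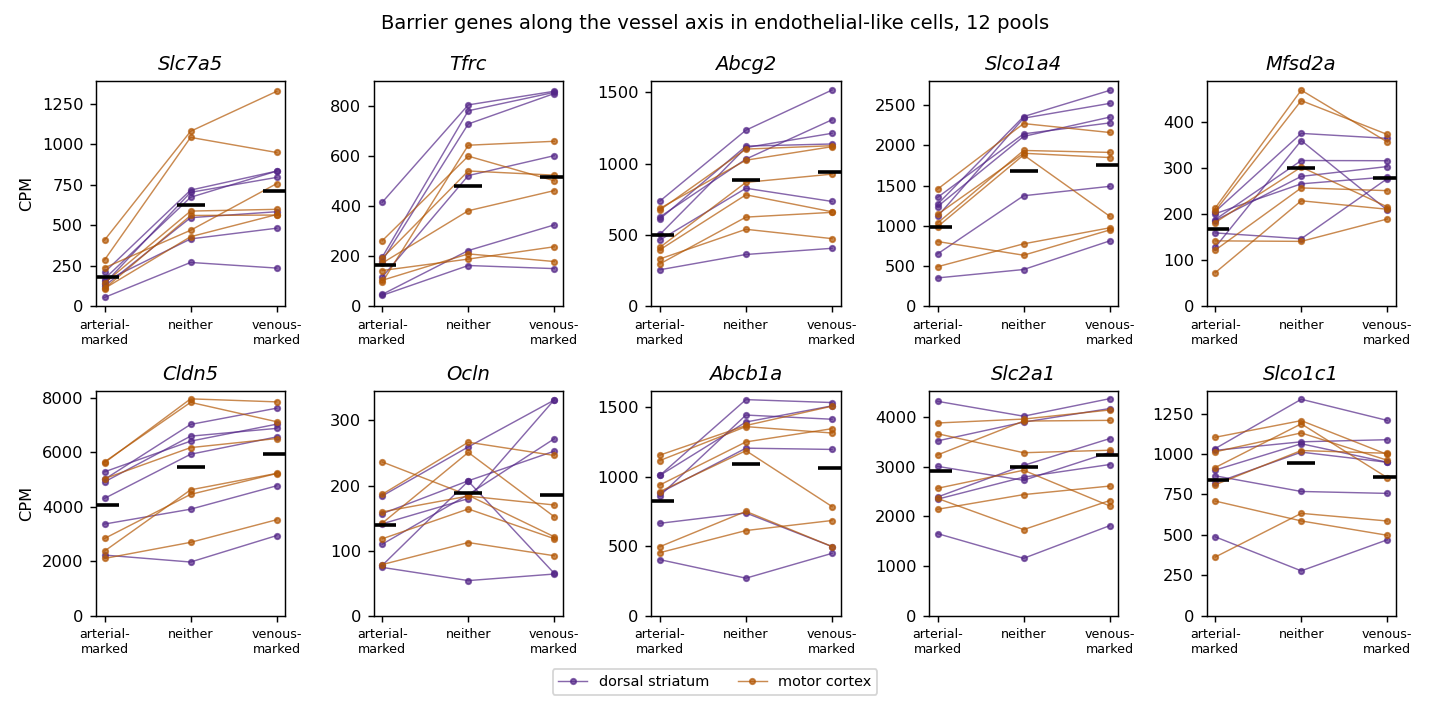
CPM of the 10 genes in arterial-marked, unmarked and venous-marked endothelial-like cells; each line joins the 3 sets of 1 pool and black bars are means over 12 pools. Slc7a5 and Tfrc are lower in arterial-marked cells in every pool, while Slco1c1 is lower there in 6 of 12 pools.

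The endothelial-like levels of the 2 regions were compared with stage and barcode class in the model. None of the 10 genes was called, where 62 of 7159 genes (0.866%) were; DESeq2 also called none of the 10. Log2 differences of motor cortex from striatum ran from -0.21 to 0.42. The largest was that of Slc7a5 (0.42, SE 0.23, edgeR adjusted p = 0.685), with 587.9 ± 243 CPM in motor cortex and 434.3 ± 153 CPM in striatum (SD, n = 6). The contrast of endothelial-like with other cells differed between regions for 1 of the 10, Abcg2, where 6.58% of 19882 genes did. The Abcg2 contrast was smaller in motor cortex, by a log2 difference of -1.54 (SE 0.26, edgeR adjusted p = 0.000185). Other cells held 13.9 ± 1.97 CPM of Abcg2 in motor cortex, in 6 of 6 pools above the highest striatal pool, and 5.87 ± 1.09 CPM in striatum. Glutamatergic neuron-like cells of motor cortex held 12.2 ± 1.70 CPM and spiny projection neuron-like cells of striatum 0.657 ± 0.153 CPM. Without striatal late replicate 1, Tfrc (-0.89, adjusted p = 0.000801) and Slco1c1 (0.74, adjusted p = 0.0295) were also called, and without motor cortex late replicate 1 Slco1c1 was (1.05, adjusted p = 0.00715).

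Training stage was compared in the 6 pools of each region with barcode class in the model. None of the 10 genes was called in any of the 6 comparisons, with edgeR or DESeq2. Of all genes, 0.0% were called for early against control, 0.0287% for late against control and 0.0% for late against early in motor cortex, and 0.0%, 0.0% and 0.0% in striatum. At an unadjusted p under 0.05, between 170 and 369 genes passed in each comparison, of 6960 tested in motor cortex and 6643 in striatum. Where no gene differs, such a cut-off passes about as many of these genes or more. In simulated counts with 200 genes changed by 1.5 log2 units, 68.5% were called for late against control in motor cortex (of 6960 genes) and 47% in striatum (of 6643). Unchanged genes called as well numbered 12 and 0. Only genes above a set level were changed, and the counts had no barcode class or batch effect and a spread taken from the trend over genes. The change was also larger than any main difference of the 10 genes here, so these rates do not hold for differences of that size. In motor cortex the smallest p values were those of Cldn5 in early mice (0.79, SE 0.28, unadjusted p = 0.0136) and of Slc7a5 in late mice (-0.75, SE 0.30, unadjusted p = 0.0257, adjusted p = 0.81). Neither gene passed after adjustment over all genes tested. For late against early the smallest p was that of Abcb1a (0.30, SE 0.27, unadjusted p = 0.284), which was -0.10 with no barcode class covariate. Cldn5 stood at 2773 CPM in the class A control pool and 4121 CPM in the class A late pool, which shared a sequencing batch. In class B it stood at 7267 and 7005 CPM in the early pools and 5891 CPM in the late pool. These were 1.71, 1.65 and 1.38 times the control pool, so each trained pool was above the control pool of its class. Slc7a5 lay below it in each, at 0.762 times in class A and 0.815, 0.491 and 0.424 times in class B. Of the 10 genes, 2 were above the control pool in both late pools and 2 were below it in both. The class B ratios reuse the same control pool, which held the lowest Cldn5 and the highest Slc7a5 level of class B. Of the class B trained pools, only early replicate 1 shared a sequencing batch with that control pool. In class A motor cortex control replicate 1 was the pool of 63 cells with microglial markers at 1406 CPM, whose part in the result was not tested.

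In striatum all 10 genes had differences below 0 for late against control, from -0.71 to -0.11, with the smallest p in edgeR for Tfrc (-0.71, SE 0.30, unadjusted p = 0.0448, adjusted p = 0.977). The median over all genes was 0.02. The other barrier genes also lay mostly below 0 in this comparison, 47 of 53 of them with a median of -0.31, and so did 15 of 15 solute carriers. With no barcode class covariate 9 of the 10 were below 0. Tfrc also had the smallest p for late against early (-0.37, SE 0.31). The 10 genes ran from -0.37 to 0.11 there, and from -1.01 to -0.25 with no barcode class covariate. For early against control the direction depended on the covariate. All 10 genes were below 0 with it, from -0.49 to -0.01, and all 10 above 0 without it, from 0.09 to 0.45. Both early pools were of class B, and they were above the class B control pool for 7 and 6 of the 10 genes. Abcg2 had the smallest p of that comparison (-0.49, SE 0.43), was 0.12 with no covariate, and stood at 0.917 and 0.992 times the class B control pool in the early pools. Late replicate 1 was below control replicate 1, of the same class and sequencing batch, for all 10 genes, with Cldn5 at 2227 against 3938 CPM. In class B 5 of the 10 were higher in the late pool than in the control pool. Late replicate 1 was the pool that held most of the second cluster, with 6277 CPM of spiny projection neuron markers. Without that cluster its Cldn5 rose to 3530 CPM and its Slco1a4 from 479.4 to 701.8 CPM, and none of the 10 genes was called in that fit. Without control replicate 2, Slco1a4 (-1.47, SE 0.48, edgeR adjusted p = 0.0488) and Slc7a5 (-1.32, SE 0.43, adjusted p = 0.0467) were called in late against control, as were 378 genes in all. That fit had 1 control pool, the single-hemisphere class A pool with haemoglobin markers at 7003 CPM, which was assumed to vary like the other stages.

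The trained pools allowed the hemisphere opposite the reaching limb to be set against the same side, within 4 pools of each region. None of the 10 genes was called, where 0.0199% of genes were in motor cortex and 0.0326% in striatum; DESeq2 called none of the 10. The smallest p was that of Mfsd2a in striatum (-0.60, SE 0.16, edgeR unadjusted p = 0.000906, adjusted p = 0.506). Its level was 238.5 against 367.2 CPM in early replicate 1, 195.4 against 313.1 in early replicate 2, 117.5 against 223.0 in late replicate 1 and 253.5 against 308.8 in late replicate 2, lower on the contralateral side in 4 of 4 pools. In the control pool with both hemispheres, left and right held 303.1 and 239.4 CPM.

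**Figure D5:**
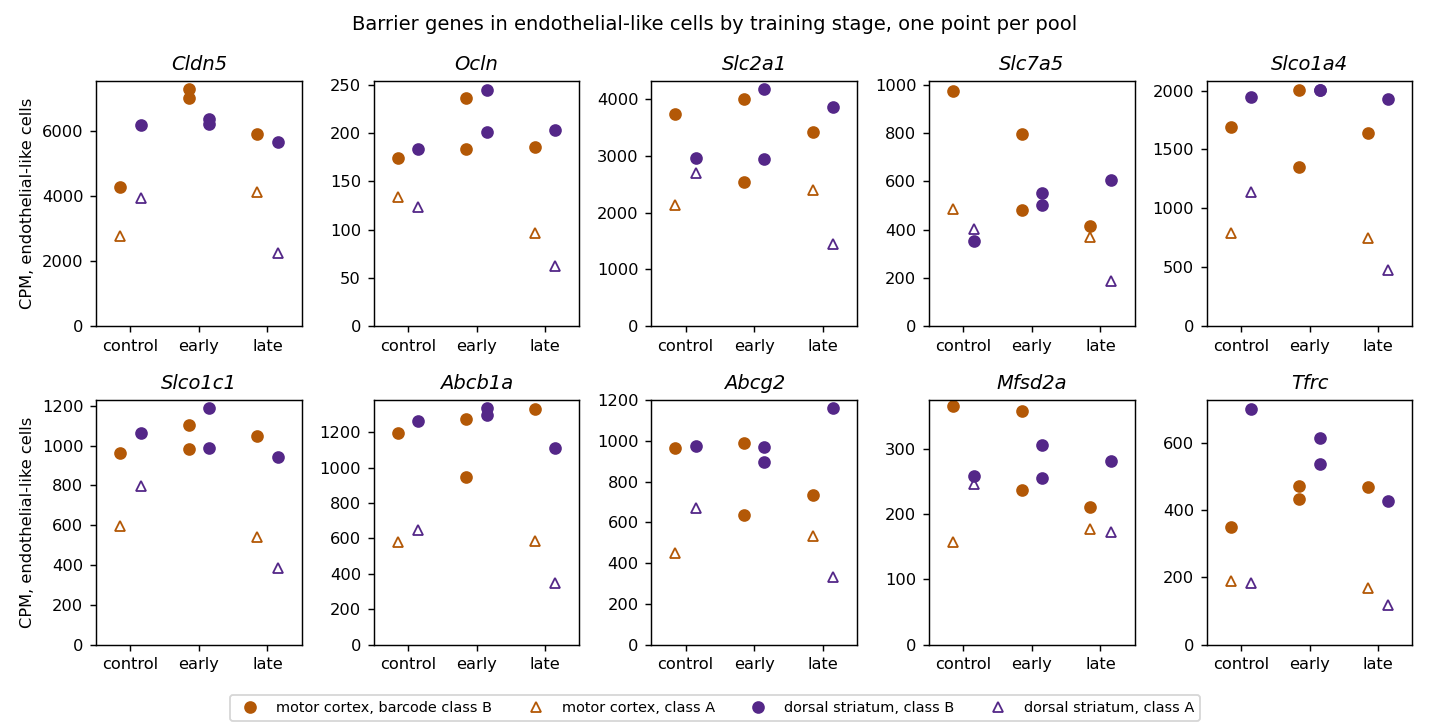
CPM of the 10 genes in endothelial-like cells of each pool by stage, in motor cortex and dorsal striatum; circles are barcode class B and open triangles class A. The class A triangles of Tfrc, Slco1a4 and Abcb1a lie below every class B circle, and no stage difference passed the test.

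The 4 pools of class A were also compared with the 8 of class B. In a model with region and stage, 7 of the 10 were called lower in class A and none higher, where 12.2% of 7159 genes were called lower and 11.6% higher. Tfrc was lowest relative to class B, at 118 to 188.5 CPM in 4 class A pools and 349.3 to 701.6 CPM in 8 class B pools, which did not overlap (-1.52, SE 0.26, edgeR adjusted p = 0.0011). Slco1a4 lay at 479.4 to 1141 CPM in class A and 1350 to 2005 CPM in class B (-1.19, SE 0.25). Abcb1a lay at 346.7 to 648.8 CPM and 950.4 to 1337 CPM (-1.17, SE 0.23). Abcg2, Ocln, Slco1c1 and Cldn5 were the other 4, at -0.92, -0.88, -0.80 and -0.73, while Slc2a1 (-0.67), Slc7a5 (-0.71) and Mfsd2a (-0.53) had adjusted p from 0.0686 to 0.0824. The count was 3 without striatal late replicate 2, 4 without motor cortex late replicate 2 and 8 without motor cortex late replicate 1. Of 55 other barrier genes tested 23 were also lower in class A and 1, Lrp1, was higher (1.92, SE 0.57, edgeR adjusted p = 0.0233). Endothelial markers summed to 10840, 12470, 16430 and 16660 CPM in the class A pools and to 16120 to 19890 CPM in class B, so that 2 class A pools lay below every class B pool. Some markers of other cells were high in some class A pools of endothelial-like cells, but not every list in every such pool. Besides the spiny projection neuron, microglial and haemoglobin markers given above, pericyte markers summed to 1362 CPM and smooth muscle markers to 489.3 CPM in motor cortex late replicate 1, and to 691.3 and 259.2 CPM in control replicate 1. The 4 class B pools of motor cortex held 182.1 to 424.3 CPM and 66.47 to 218.2 CPM of them. The part of these markers in the result was not tested. Each of the 6 sequencing batches in the labels held pools of only 1 class, so batch and barcode class cannot be told apart. This comparison was added after the values had been seen.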

How the data were processed

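Single-cell libraries (10x Chromium 3' kit, version 2 or 3) were processed with Cell Ranger 3.1.0 on GRCm38 (mm10), per the submitters' processing notes; cell calling and annotation are not given in the sources used here. The deposited files hold raw UMI counts per gene and barcode, per the file headers, which name software version 3.0.2 and so differ from the notes. Everything else was computed from these counts.

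Barcodes with at least 500 genes, at least 1000 UMIs and at most 20% mitochondrial UMIs were kept (103715 of 127901). Scrublet scores removed 5103 as doublets, the top 0.8% per 1000 cells of each library. Cells were clustered per region (scanpy 1.11.5, 2000 variable genes, 40 principal components, Leiden resolution 1.5). A cluster was named where at least 3 markers of a class were in 20% of its cells at 2-fold or more; these naming thresholds were set after clusters had been seen. UMIs were summed per pool and class with at least 20 cells and tested with edgeR 4.0.16 (TMM, quasi-likelihood, Benjamini-Hochberg adjustment over all genes tested, threshold 0.05); DESeq2 1.42.0 was an alternative. The pool was a block between classes, vessel marks and hemispheres, and barcode class a covariate between stages. Levels are CPM of the sums, with no correction for gene length. Per the labels, the 2 pools of a group hold different mice and were in different sequencing batches. Pool numbers follow accession order, so they were not used as pairs, although control and late replicate 1 of each region share a sequencing batch and barcode class. Early replicate 1 and control replicate 2 of each region also share both. The models were checked on simulated data.

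The 10 genes, the barrier lists and the markers were chosen with earlier results of these data known. The text names all 10 genes between classes; elsewhere those that passed the test and the one with the smallest p, and those left outside a count of 5 or fewer, which were picked after their values were seen. Of each barrier list it names up to 3 genes per direction by adjusted p, and for likeness the 2 genes of highest correlation; a few genes these rules pick are not reported here. Other cell filters, doublets kept, cells picked by markers, RLE factors, no count filter, and leaving out each pool were tried.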

Additional observations from a re-analysis of the deposited data

Results flagged for a closer look

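Abcg2, which encodes an efflux pump, had a contrast of endothelial-like with other cells that differed between the regions by the interaction term of the model: -1.54 log2 units in motor cortex relative to striatum (edgeR adjusted p = 0.000185), and -1.68 to -1.44 over 15 alternatives with adjusted p from 3.02e-11 to 0.00113. Region and driver line cannot be told apart, and the other cells were a different mix of classes in each region. They held 13.9 CPM of Abcg2 in motor cortex and 5.87 CPM in striatum. Endothelial-like cells held 718.1 and 835.0 CPM, and Abcg2 was not called between the regions within them. None of 20 groups of 6 endothelial-like pools had a sample whose gap to its neighbour passed Dixon's critical value of 0.625. Each group held a pair of class A pools, and a low pair can hide each other in a test of single gaps. The result therefore does not show that no pool stood apart.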

How the results depend on the processing

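Of 600 values of the 10 genes recomputed between cell classes, 600 kept their direction and call, and of 374 in the other comparisons 348 did; the latter cover only the genes called or with the smallest p there, so they do not describe all 10. Counts of all genes moved more. Against mural cells, 5387 genes in motor cortex and 4671 in striatum became 3404 and 2535 with no replicate block, and 3393 and 3040 with a stricter cell filter. The stricter filter gave 2, 4 and 1 genes in motor cortex for the stage comparisons (early with control, late with control, late with early), and 58, 23 and 20 in striatum. With no filter on low counts these were 15, 45 and 21, and 6, 26 and 25, with 9 and 6 between hemispheres and 379 between regions (62 in the main result). With doublets kept they were 1, 0 and 1, and 5, 7 and 1. With cells picked by markers they were 1, 1 and 2 in motor cortex, and 2 and 1 for early and late against control in striatum. Without the second striatal cluster, an alternative chosen after seeing the data, both striatal comparisons with control gave 3 and regions 32. DESeq2 gave 0 for late against control in motor cortex and 0 between hemispheres of each region. With no barcode class covariate, late against control in motor cortex gave 0 and regions 26. With the replicate number as a block, which in late against control is the same split as barcode class, late against control gave 0 and late against early 1 in motor cortex.

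Leaving out 1 pool at a time gave 0 to 57, 0 to 61 and 0 to 25 genes for the motor cortex stages, 0 to 200, 0 to 378 and 0 to 160 for the striatal stages, 0 to 5 and 0 to 2 between hemispheres, 30 to 183 between regions and 760 to 1702 between barcode classes. Of the 10 genes it gave 0 to 2 in striatal late against control, 3 to 8 between barcode classes and 1 to 3 for the region difference. Directions of the 10 genes, none called, turned where early pools, all of class B, were compared. With no barcode class covariate, 0 of 10 were below 0 for striatal early against control (10 in the main result) and 1 of 10 in motor cortex (5), and 10 of 10 were below 0 for late against early in each region (9 and 4). Of the genes named there, Abcb1a in motor cortex late against early was -0.10 with no barcode class covariate and -0.23 with the replicate block (0.30 in the main result), and Abcg2 in striatal early against control was 0.12 and 0.17 (-0.49 in the main result); the cause was not tested.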

Other observations

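Other barrier genes also differed along the vessel axis, in the contrast of arterial-marked with venous-marked endothelial-like cells over 12 pools. Of 49 of the 65 genes tested, 20 (of all genes 8.97%) were called lower and 5 (of all genes 9.86%) higher in arterial-marked cells, the higher calls being near the share of all genes; the genes named here were chosen after their values were seen. Of 15 solute carriers 11 were lower and 2 higher. Slc38a5, a glutamine carrier, had a median of 3.64 CPM in arterial-marked and 177.9 CPM in venous-marked cells and was lower in 12 of 12 pools (log2 difference -5.44, SE 0.27, edgeR adjusted p = 1.43e-18). Its arterial-marked pools lay near the floor, at 0 to 15.4 CPM, so it passed the count filter through venous-marked cells. The size of that difference is therefore not exact. Slc16a1, the lactate carrier MCT1, had medians of 74.6 and 289.1 CPM and was lower in 12 of 12 pools (-2.12, SE 0.13). Slc38a3 (-1.96, SE 0.17) and Slc22a8, a carrier of organic anions (-1.66, SE 0.14), were lower too. The taurine carrier Slc6a6 was higher (0.64, SE 0.08).

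Of 11 receptors and vesicle genes 5 were lower, among them the receptors Igf1r (-0.97, SE 0.09) and Fcgrt (-0.92, SE 0.11), and Cav1, which forms caveolae, was higher (0.47, SE 0.14). Of 15 genes of Wnt signalling and transcription factors 3 were lower, with the receptor Fzd4 at -0.87 (SE 0.17), and Reck, its partner in Wnt7 signalling, was higher (1.45, SE 0.17). The junction gene F11r was higher (0.45, SE 0.15).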
